A study of Mus musculus with 4 samples.

Results

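Microglia with a few transcripts of MHC class II genes were examined in single-cell RNA sequencing of sorted brain myeloid cells. A kept cell had at least 400 detected genes and at most 10% of its UMIs (unique molecular identifiers, each standing for 1 captured transcript) in mitochondrial genes. Low class II cells were those whose UMIs of Cd74, H2-Aa, H2-Ab1 and H2-Eb1 summed to 2 to 9, and 363 of 13002 kept cells (2.79%) met this definition. The values of these 4 genes therefore chose the cells and are described without a test. Of the other kept cells, 10921 had a sum of 0, 1651 a sum of 1 and 67 a sum of 10 or more.

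The 4 libraries formed a single group (n = 4 mice, named replicates 1 to 4). Each came from cortex and hippocampus of 1 male C57BL/6J mouse aged 90 days, which carried no allele named in the labels and received PBS into the tail vein, 24 h before sacrifice per the labels, whereas the study's methods give a shorter interval. Tissue was dissociated by cold Dounce, a mechanical method without enzymes, and cells were sorted as CD45+ and CD11b+, which macrophages and monocytes of the brain's borders also carry. The study's sample table adds CX3CR1+ to the gate of this dataset, whereas its general methods leave CX3CR1 out. There was no untreated or other control group, so all comparisons are between cells of the same libraries. The libraries held 5867333 to 11275195 UMIs and 2576 to 3692 kept cells. The same barcode sequence occurred in 2 or more libraries 84 times, and 4 low class II cells carried such a barcode. Cell Ranger had already discarded empty droplets, so free RNA was not measured directly, and the sort held no cell type that lacks class II for certain and could give a background share. No doublets were removed.

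MHC class II molecules present peptides from engulfed material to CD4+ T cells. The H2-A molecule is a pair of chains encoded by H2-Aa and H2-Ab1, H2-Eb1 encodes the beta chain of H2-E, and Cd74 encodes the invariant chain that holds the peptide groove closed until the molecule reaches the endosome. Their promoters share an upstream X box, bound by the RFX complex, and a Y box, bound by NF-Y, on which the coactivator CIITA assembles. Resting microglia have little class II, whereas border macrophages, dendritic cells and many monocyte-derived cells have much. MHC class I, made of a heavy chain such as H2-D1 with B2m, is present on nearly all cells.

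On GRCm38 (GENCODE M21) H2-Ab1 lies at chr17:34257689-34269419 on the plus strand, H2-Aa at chr17:34282744-34287823 on the minus strand and H2-Eb1 at chr17:34305867-34316674 on the plus strand, while Cd74 lies on another chromosome. The RefSeq promoters (250 bases before to 50 after the start, GRCm38.p6) of both class II genes found in the promoter table are shown with that of H2-D1, since H2-D1 was higher in the low class II cells. They span chr17:34287774-34288073 (minus strand) for H2-Aa, chr17:34305617-34305916 (plus strand) for H2-Eb1 and chr17:35262844-35263143 (plus strand) for H2-D1. Capitals mark the Y box core ATTGG and the letters GCAAC found in X boxes, or their reverse complements CCAAT and GTTGC.
H2-Aa: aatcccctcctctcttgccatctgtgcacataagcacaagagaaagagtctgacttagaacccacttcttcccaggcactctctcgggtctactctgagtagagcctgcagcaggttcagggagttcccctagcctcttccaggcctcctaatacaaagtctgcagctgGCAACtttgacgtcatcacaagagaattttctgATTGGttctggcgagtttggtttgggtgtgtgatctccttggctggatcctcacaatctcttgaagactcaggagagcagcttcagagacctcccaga
H2-Eb1: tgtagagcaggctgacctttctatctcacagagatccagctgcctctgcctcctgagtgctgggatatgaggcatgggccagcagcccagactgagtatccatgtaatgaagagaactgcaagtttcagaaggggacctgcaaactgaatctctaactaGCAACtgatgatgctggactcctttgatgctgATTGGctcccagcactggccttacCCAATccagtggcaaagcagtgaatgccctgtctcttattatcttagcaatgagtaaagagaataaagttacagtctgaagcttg
H2-D1: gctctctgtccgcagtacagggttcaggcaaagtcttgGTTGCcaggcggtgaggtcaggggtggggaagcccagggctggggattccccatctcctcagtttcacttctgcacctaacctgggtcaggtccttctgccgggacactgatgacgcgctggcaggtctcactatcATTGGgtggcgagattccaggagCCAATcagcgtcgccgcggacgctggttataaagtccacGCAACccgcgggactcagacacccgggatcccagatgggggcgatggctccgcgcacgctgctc
In H2-Aa the start of GCAAC lay 33 bases before the start of ATTGG, and in H2-Eb1 32 bases. Over all 32851 promoters of this length, searched on both strands, 37.4% held ATTGG, 35.2% held GCAAC and 0.794% held GCAAC followed by ATTGG with starts 25 to 40 bases apart. The H2-D1 promoter held each motif without that arrangement. These matches are descriptions of the letters and say nothing of binding.

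Low class II cells had the markers of microglia. Tmem119, a transmembrane protein of mature microglia, had a UMI in 355 of the 363 cells and P2ry12, the purinergic receptor of homeostatic microglia, in 358. Both were found in 353 cells (97.2%) and neither in 3, whereas 70.1% of the cells with a sum of 10 or more had both. The median cell held 8 Tmem119 and 13 P2ry12 UMIs, beside 7 and 13 in sum-0 cells, and 2 of each in cells with 10 or more. The label of microglia therefore held for nearly all of the cells by these markers, with exceptions given here and below. Some cells with 0 UMIs of the 7 border macrophage genes listed below had few UMIs of the 18 microglial identity genes. In cells of replicate 1 these gave 0.905%, 0.961%, 0.551% and 0.881% of the UMIs outside the 4 genes. In a cell of replicate 3 they gave 0.940%. These cells held 0 to 2 Tmem119 and P2ry12 UMIs together. The median share was 8.36% in low class II cells with under 3 border gene UMIs. Also, 3 low class II cells had 3 or more monocyte marker UMIs.

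Replicate 4 stood apart from the other libraries in the number of these cells. Low class II cells were 61 of 3576 kept cells in replicate 1, 64 of 3692 in replicate 2, 40 of 2576 in replicate 3 and 198 of 3158 in replicate 4. The shares were 1.71% (1.31 to 2.19, exact Clopper-Pearson 95% interval), 1.73% (1.34 to 2.21), 1.55% (1.11 to 2.11) and 6.27% (5.45 to 7.17), a mean of 2.82% ± 2.30 (SD, n = 4) that became 1.66% without replicate 4. Cells with a sum of 10 or more showed the same order of size, with 10, 12, 7 and 38 cells. With each cell thinned to 1000 UMIs, which left out 265 shallower cells, 0.715%, 0.60%, 0.602% and 1.59% of cells remained in the definition, so replicate 4 was still the highest. All intervals and floors given here cover counting error only. The study's methods and supplement describe a sorter clog, with added time at room temperature, for the final animal, which they number as sample 4. The supplement reports cells with the study's signature of ex vivo activated microglia almost only in that sample. The labels number the samples otherwise and do not say which library this was. Among sum-0 cells replicate 4 stood apart in Jun, an immediate early gene, at 815 CPM (UMIs in 1000000 UMIs of the cells concerned) against 261 to 360 in the others, and in Klf2, at 112 CPM against 14.2 to 24.3. In the depth-matched sum-0 cells described below, the 25 genes of that signature summed to 4949 CPM in replicate 4 and to 2683 to 2982 CPM in the others. The part of the clog in the shares of low class II cells was not tested.

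Most low class II cells sat at the lower edge of the definition. A sum of 2 was found in 259 cells, 3 in 46, 4 in 32, 5 in 10, 6 in 9, 7 in 4, 8 in none and 9 in 3. Just outside, 1651 cells had a sum of 1, 3 cells a sum of 10 and 2 a sum of 11. The 3 cells with 9 held 2783 to 4186 UMIs in all and 20 to 29 UMIs of Tmem119 and P2ry12 together, and the 3 cells with 10 held 3376 to 6012 UMIs and 5 to 44 of these markers.

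**Figure D1:**
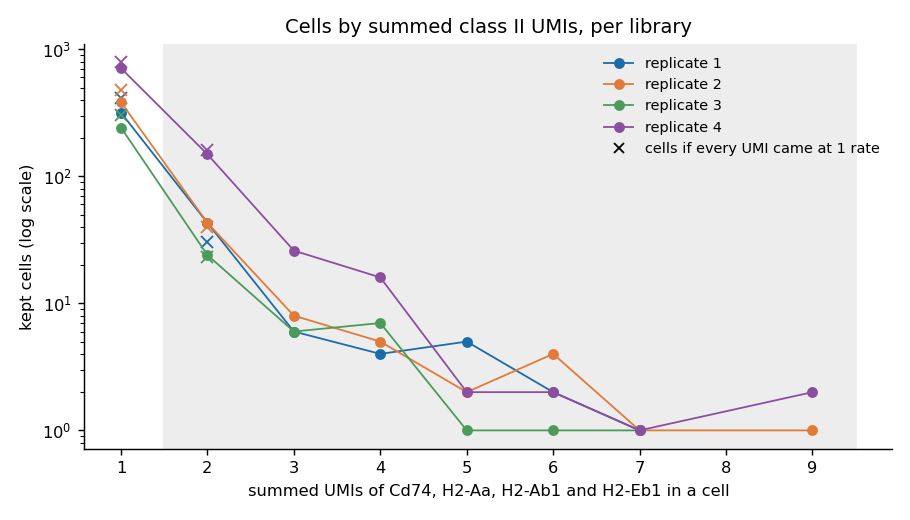
Kept cells (y axis, log scale) by the summed UMIs of the 4 class II genes in a cell (x axis), with a line per library; the shaded range is the definition of low class II cells, sums with no cell are not drawn, and crosses give the number of cells at sums of 1 and 2 if every UMI of the cells with 0 to 9 came at 1 rate per library. Replicate 4 lies above the other libraries at sums of 1 to 4, and fewer cells than the single rate gives were seen at a sum of 1 in each library.

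As a description of the genes that chose the cells, the counts were more uneven among cells than a single rate gives. The cells with 0 to 9 included some with border macrophage markers. If the class II UMIs of all cells with 0 to 9 had come at 1 rate per UMI of depth in each library, 31.8, 42.2, 24.5 and 188 cells would have had a sum of 2 to 9, beside the 61, 64, 40 and 198 found. For sums of 3 to 9 the single rate gave 1.68, 2.66, 1.47 and 27.5 cells, and 18, 21, 16 and 49 were found. The variance over the mean of the sum, taken without regard to depth, was 1.64, 1.68, 1.60 and 1.40. The rate itself was 68.5, 50.2 and 60.9 CPM in replicates 1 to 3 and 135 CPM in replicate 4, where the cells with 10 or more also held the most class II UMIs (9565, beside 1958 to 2441). Replicate 4, with the highest rate, thus came closest to the single rate. Whether free RNA followed the class II RNA of the cells with 10 or more was not tested.

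Cd74 made up most of the UMIs of the low class II cells, which the definition did not require. In replicates 1 to 4 it gave 75.0%, 73.3%, 73.2% and 55.2% of the 4 genes' UMIs, beside 50.1%, 50.6%, 51.8% and 52.7% in the cells with 10 or more of the same libraries. The difference was 17.9 ± 10.3 percentage points (SD, n = 4), and Cd74 had the larger share in 4 of 4 libraries. It is given without a test, because the same UMIs sorted the cells into classes. In replicate 4 it was 2.53 points, and in the others 21.4 to 24.9. At a sum of 1, Cd74 gave 41.6% to 52.5%.

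H2-Eb1 and H2-Aa had the opposite pattern. H2-Eb1 gave 1.22%, 2.78%, 3.57% and 6.78% of the UMIs in low class II cells and 12.6% to 14.1% in cells with 10 or more. H2-Aa gave 4.27%, 6.67%, 6.25% and 12.1%, and 16.2% to 17.9% in cells with 10 or more. H2-Ab1 gave 17.0% to 19.5% in replicates 1 to 3, where the intervals held its share of 17.9% to 19.2% in cells with 10 or more, and in replicate 4 gave 25.9% (22.04 to 30.0) against 18.5% (17.8 to 19.3). In cells with a sum of 1 it gave 30.6% to 39.7%. As the sum grew from 2 to the range 3 to 9, the Cd74 share went from 67.4% to 83.3% in replicate 1, from 69.8% to 76.6% in replicate 2, from 60.4% to 82.8% in replicate 3 and from 41.9% to 76.2% in replicate 4. Replicate 4 therefore resembled the others at 3 to 9 UMIs, and at 2 UMIs lay below its own cells with 10 or more.

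**Figure D2:**
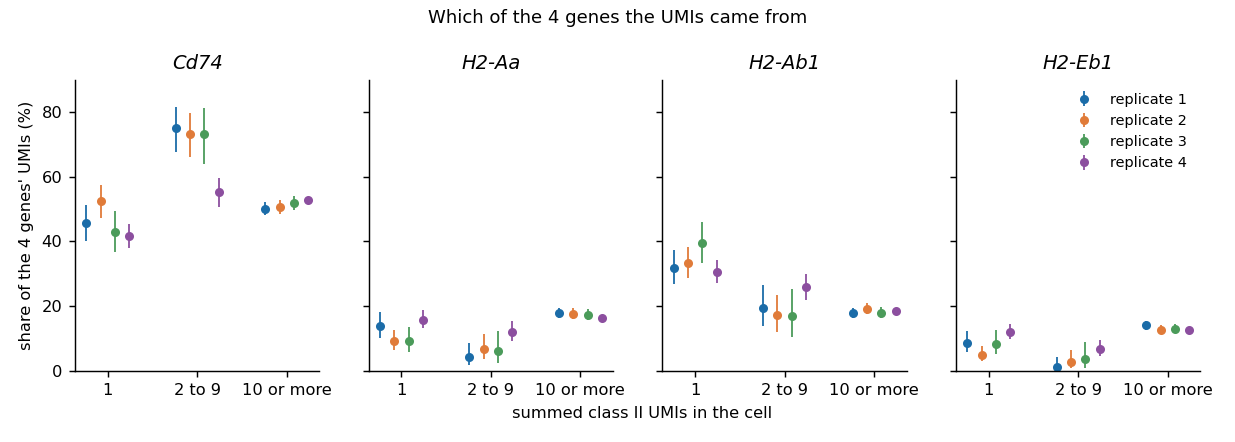
Share of the 4 genes' UMIs (y axis, %) that came from each gene, by summed class II UMIs in the cell (x axis), per library, with exact 95% Clopper-Pearson intervals. Cd74 gave 73.2% to 75.0% in low class II cells of replicates 1 to 3 and 55.2% in replicate 4, against 50.1% to 52.7% in cells with 10 or more.

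By the cells, 136 (37.5%) had only Cd74, 148 (40.8%) had Cd74 with at least 1 chain gene and 79 (21.8%) had no Cd74. The cells without Cd74 were 7 of 61, 7 of 64, 5 of 40 and 60 of 198, so most were in replicate 4. At least 3 of the 4 genes were found together in 11 cells.

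The level of each gene in the cells with 0 to 9 was far below that in the cells with 10 or more. In replicate 4 the level was 0.166% of that in the cells with 10 or more for Cd74, 0.164% for H2-Aa, 0.146% for H2-Eb1 and 0.288% for H2-Ab1. In replicates 1 to 3 Cd74 stood at 0.0749% to 0.161% and H2-Ab1 at 0.133% to 0.203%, while H2-Aa and H2-Eb1 stood at 0.0350% to 0.0656%. Cd74, H2-Aa and H2-Eb1 were thus near a common ratio in replicate 4 only, and H2-Ab1 was above the other chain genes in each library.

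To ask whether class II genes met in the same cells, cells with a Cd74 UMI and a sum of at most 9 were paired with cells of the same library and depth that had none. A UMI of H2-Aa, H2-Ab1 or H2-Eb1 was found in 11.6% of the cells with Cd74 and 7.04% of those without in replicate 1, in 9.77% and 5.08% in replicate 2, in 11.7% and 6.57% in replicate 3, and in 19.4% and 18.5% in replicate 4. The difference was 3.81 ± 1.94 percentage points (SD, n = 4) and in the same direction in 4 of 4 libraries, again a description of the genes that chose the cells. It was 4.77 points without replicate 4, where it was 0.924 points and the intervals of the paired shares overlapped in each library.

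**Figure D3:**
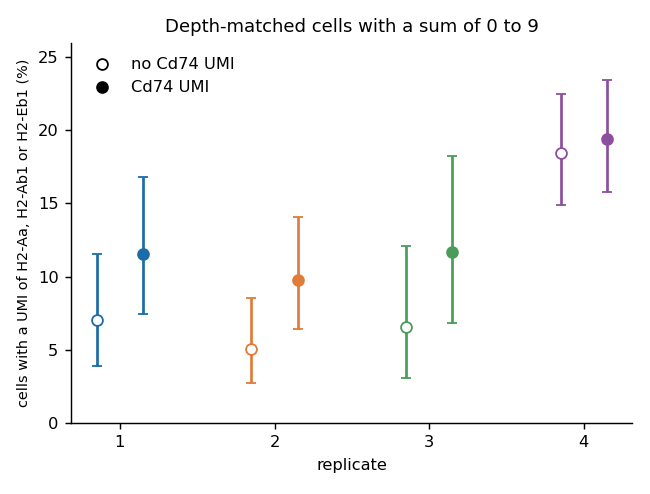
Share of cells (y axis, %) with a UMI of H2-Aa, H2-Ab1 or H2-Eb1 in each library (x axis), for cells with a Cd74 UMI (filled) and depth-matched cells without (open), all with a sum of 0 to 9, with exact 95% Clopper-Pearson intervals. The filled point is higher by 4.52 to 5.11 percentage points in replicates 1 to 3 and by 0.924 in replicate 4.

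The rest of the transcriptome was then compared between low class II cells and sum-0 cells, since it had no part in the definition. Each cell was paired with a sum-0 cell of the same library whose UMIs outside the 4 genes were within 10%, which placed 360 of 363 cells, and counts were summed by library and arm. Genes were called at an adjusted p under 0.05 and a log2 fold change beyond 0.58 in either direction. Of 2912 genes tested, 7 (0.240%) were higher in low class II cells and 0 (0%) lower, and 194 had an unadjusted p under 0.05 (edgeR quasi-likelihood test with the library as a block, Benjamini-Hochberg). With DESeq2, which gave 46 genes an unadjusted p under 0.05, only H2-D1 was called. In edgeR 0 genes were called without the library as a block, where 119 had an unadjusted p under 0.05, and 0 without replicate 4, where 107 did.

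Among the called genes, those that rose in all 4 libraries were H2-D1, Cd83 and Cd52. H2-D1, a class I heavy chain, stood at 1759, 923, 895 and 752 CPM in low class II cells of replicates 1 to 4 and at 902, 630, 609 and 555 CPM in sum-0 cells. Each library was higher, while the groups overlapped because replicate 1 was high in both arms. The log2 fold change was 0.63 ± 0.10 (SE), with an adjusted p of 2.05e-05 from edgeR's quasi-likelihood test with Benjamini-Hochberg adjustment. The gene had a UMI in 81.9% of low class II cells and 74.4% of matched sum-0 cells, and the 10 cells with the most UMIs held 14.1% and 16.9% of them.

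Cd83, a surface protein of activated antigen-presenting cells that stabilises class II and CD86 at the membrane, stood at 206, 110, 523 and 144 CPM against 107, 84.6, 105 and 96.4 CPM. The groups did not overlap, and replicate 3 was far above the rest. Its log2 fold change was 0.94 ± 0.19 (edgeR quasi-likelihood test, Benjamini-Hochberg adjusted p = 0.00288), and 0.62, no longer called, without replicate 3. The share of cells with a UMI was 28.9% against 22.5%, and the 10 cells with the most UMIs held 37.3% and 30.3% of them.

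Cd52, a short GPI-anchored glycoprotein of leukocytes, stood at 711, 406, 333 and 277 CPM against 191, 313, 238 and 211 CPM. Replicate 1 had the widest gap and the groups overlapped. The log2 fold change was 0.68 ± 0.14 (edgeR quasi-likelihood test, Benjamini-Hochberg adjusted p = 0.00487), falling to 0.41, below the call, without replicate 1. A UMI was found in 58.1% of low class II cells and 43.1% of sum-0 cells.

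The other 4 called genes did not move alike in all libraries, and they are named although they fall outside the rule for named genes. Apoe, the lipid carrier apolipoprotein E, stood at 726, 1769, 1599 and 2775 CPM against 413, 1771, 761 and 659 CPM, with no gap in replicate 2. Lyz2, the lysozyme of myeloid cells, stood at 1231, 774, 971 and 791 CPM against 329, 575, 989 and 363 CPM, with no gap in replicate 3. Pf4, a platelet factor also made by border macrophages, stood at 0, 127, 105 and 162 CPM against 0, 110, 66.6 and 28.6 CPM. These 3 genes are named together because border macrophages have high levels of each.

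Gpr84, a receptor for medium-chain fatty acids, stood at 145, 178, 390 and 207 CPM against 176, 118, 85.6 and 134 CPM, and replicate 1 went the other way. A Gpr84 UMI was found in 31.4% of low class II cells and 29.2% of sum-0 cells. The 10 cells with the most held 44.6% and 24.2% of its UMIs. Log2 fold changes were 1.10 ± 0.14 for Apoe, 0.87 ± 0.13 for Lyz2, 1.50 ± 0.25 for Pf4 and 0.71 ± 0.17 for Gpr84, with adjusted p of 7.58e-07, 8.15e-06, 0.000106 and 0.0317 in the same edgeR test with Benjamini-Hochberg adjustment. Without replicate 4, where no call was left, Apoe was at 0.50 and Pf4 at 0.33, while Lyz2 was at 0.71, Cd83 at 1.27, Cd52 at 0.89, H2-D1 at 0.73 and Gpr84 at 0.79. Leaving out replicate 1 ended the calls of H2-D1 (0.51) and Cd52, that of H2-D1 by its fold alone (edgeR test, Benjamini-Hochberg adjusted p = 0.00063). Leaving out replicate 2 ended those of Cd52 (0.80) and Gpr84 (0.75). Leaving out replicate 3 ended those of Cd83, Cd52 (0.69), Apoe (1.08), Gpr84 (0.50) and Pf4 (1.59). The matched sum-0 cells of replicate 2 were high in Apoe beside all sum-0 cells of that library (445 CPM), so the choice of matched cells entered that value.

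**Figure D4:**
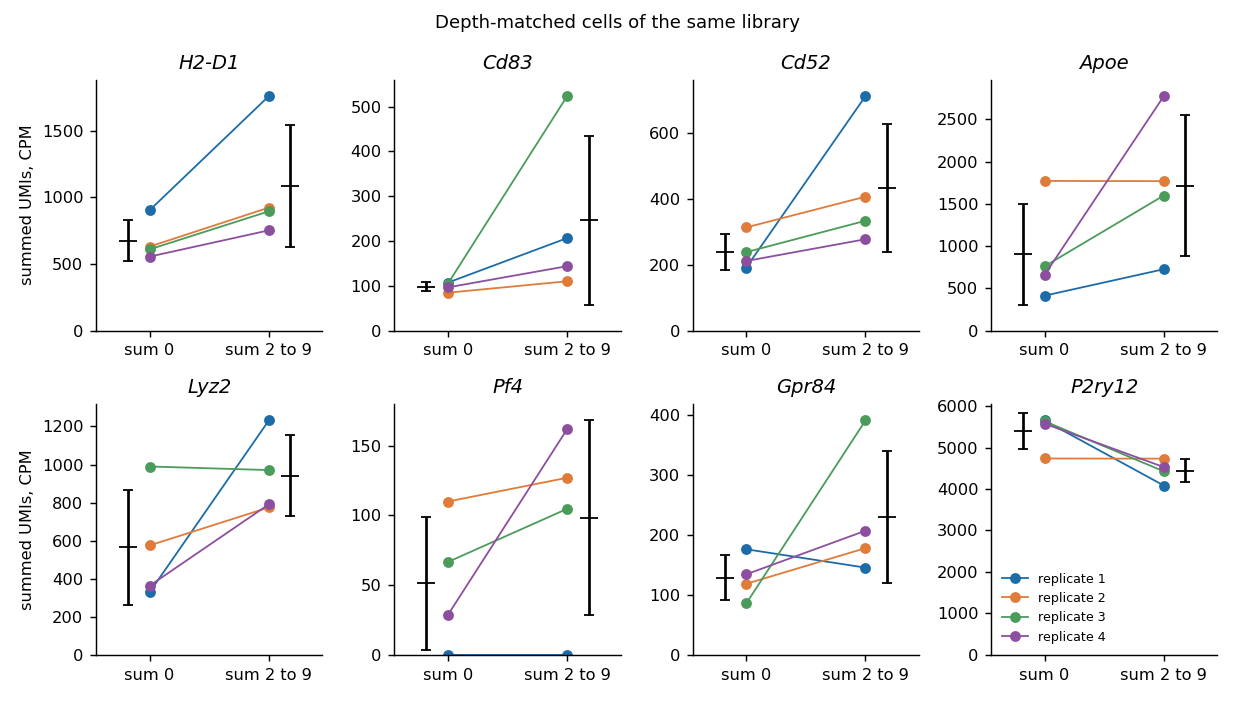
Summed UMIs as CPM (y axis from 0) of the 7 called genes and of P2ry12 in depth-matched sum-0 cells and low class II cells (sum 2 to 9), with a line per library and the mean and SD of 4 libraries beside each arm. H2-D1, Cd83 and Cd52 are higher in low class II cells of all 4 libraries, whereas Apoe, Lyz2, Pf4 and Gpr84 each have at least 1 library without a rise. P2ry12 is lower in replicates 1, 3 and 4 and level in replicate 2.

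A few cells carried most of the Apoe and Pf4 in both matched arms. For Apoe, the 10 cells with the most UMIs held 66.1% in low class II cells and 63.5% in sum-0 cells. For Pf4 they held 100% and 94.2%. Of the 363 cells, 11 (3.03%) had 3 or more UMIs of the 7 border macrophage genes Pf4, Mrc1, F13a1, Ms4a7, Cbr2, Cd163 and Lyve1, with 0, 2, 3 and 6 in replicates 1 to 4. The same held for 11 of 10921 sum-0 cells (0.101%), 9 of 1651 cells with a sum of 1 (0.545%) and 26 of 67 cells with 10 or more (38.8%). These shares were not matched for depth. In the depth-matched arms a Pf4 UMI was found in 2.78% of low class II cells and 3.61% of sum-0 cells. The 11 low class II cells of this kind held 60.4% of the Apoe UMIs and 99.0% of the Pf4 UMIs of all low class II cells. Their median Apoe count was 145 against 1 in the other 352.

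Depth and microglial markers varied among the 11. They held 1979 to 20852 UMIs, with a median of 6935 against 2924 in the others, and 0 to 113 UMIs of Tmem119 and P2ry12 together. Cells of this kind with many UMIs of both sorts, such as a cell of replicate 3 with 20852 UMIs, 50 border gene UMIs and 113 microglial marker UMIs, stood beside cells of replicate 4 with 0 microglial marker UMIs. Among all low class II cells, 55 (15.2%) were among the 5% of kept cells with the most UMIs. The definition counts UMIs without regard to depth, so deeper cells meet it more readily. How many were doublets was not tested.

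Apoe UMIs were not confined to these cells, but a UMI was found in 53.6% of low class II cells and 50.3% of matched sum-0 cells. In low class II cells with 0 border gene UMIs the highest Apoe counts were 176, 130, 113 and 70, all in replicate 4. Without any cell holding a UMI of 20 defining border macrophage, monocyte or dendritic markers in either arm, 6 genes were called (Apoe, Lyz2, H2-D1, Cd52, Cd83 and Gpr84), with log2 fold changes of 0.82 for Apoe and 0.77 for Lyz2. Without cells with any UMI of the wider marker lists, 5 were called, among them H2-D1 (0.73), Cd52 (0.88), Apoe (0.78) and Gpr84 (1.32), while Lyz2, at 0.54, lost its call. After removal of the 5% of cells deepest in UMIs, 3 were called, H2-D1 at 0.73, Apoe at 1.94 and Lyz2 at 0.95, while Cd83 was at 0.70, Cd52 at 0.62 and Gpr84 at 0.25.

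A second set of genes passed the adjusted p but not the fold. In the edgeR test with Benjamini-Hochberg adjustment, 13 genes higher (0.446% of those tested) and 1 lower (0.0343%) had an adjusted p under 0.05 at any fold. B2m, the class I light chain, stood at 5766, 4024, 4359 and 3686 CPM against 3586, 3386, 3083 and 3320 CPM, so the groups did not overlap (log2 fold change 0.40 ± 0.07, adjusted p = 0.000106). Cd63, a tetraspanin of late endosomes, was at 0.52 ± 0.10, Ctsb, a lysosomal cysteine protease, at 0.34 ± 0.07, and Fth1, the ferritin heavy chain, at 0.31 ± 0.07.

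The mitochondrial transcripts mt-Atp6 and mt-Co1 were in the same set, at 0.31 ± 0.07 and 0.34 ± 0.08. The median share of mitochondrial UMIs per cell was 1.62%, 1.32%, 1.13% and 1.32% in low class II cells against 1.36%, 1.26%, 1.11% and 1.15% in sum-0 cells, higher in 4 of 4 libraries. The part of cell quality in the other values was not tested. P2ry12 was the lower gene, at 4083, 4731, 4426 and 4528 CPM against 5651, 4735, 5632 and 5574 CPM (log2 fold change -0.24 ± 0.06, edgeR adjusted p = 0.0356), with replicate 2 level. Tmem119 was at -0.07 ± 0.07 and was not called.

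The genes for other class II chains and peptide loading were tested next. Of 11 genes on this list, 7 could be tested and 0 were called, and all 7 log2 fold changes were above 0, with a median of 0.20 beside -0.0013 over all genes tested. H2-DMb1, a chain of the peptide exchange factor, stood at 321, 267, 305 and 243 CPM against 214, 156, 304 and 220 CPM (log2 fold change 0.33 ± 0.14, edgeR adjusted p = 0.594). Ctss, the protease that trims the invariant chain, was at 0.17 ± 0.05 (edgeR adjusted p = 0.146), higher in 4 of 4 libraries. Ciita and H2-Eb2 had no UMI in the matched low class II cells, where 3 UMIs of 1139819 would correspond to 2.63 CPM.

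Of 10 transcription factor genes for class II, only 2 could be tested and 0 were called, with a median of 0.02. Of 19 genes of interferon gamma signalling, the main inducer of CIITA, 4 could be tested and 0 were called, with a median of -0.01, and Tgtp1 and Cxcl9 had no UMI. Counts at this depth thus left most regulators untested.

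Counts of called genes on the following lists stand beside 0.240% called higher over all genes. Class I presentation had 10 of 17 genes tested, 1 called higher (H2-D1), 0 lower and a median of 0.15. The type I interferon list had 4 of 22 tested, 0 called and a median of 0.32, and its tested gene with the lowest p, Ifitm3, a membrane protein that blocks viral entry, was at 0.66 ± 0.27 (edgeR adjusted p = 0.565). Summed over its 22 genes, this list stood at 1935, 559, 1532 and 502 CPM in low class II cells against 1162, 486, 818 and 426 CPM, so replicates 1 and 3 were high in both arms. Without cells holding 3 or more UMIs of this list H2-D1 was at 0.52 and no longer called, while Cd83 was at 0.93 and Cd52 at 0.58, both called. H2-D1 lost its call there by its fold alone (edgeR quasi-likelihood test, Benjamini-Hochberg adjusted p = 0.000128). Lyz2 went from 0.87 to 0.59 and kept its call. The part of interferon in these values was not tested further.

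The disease-associated microglia list, genes that rise in microglia around plaques and in ageing, had 11 of 21 genes tested, 2 called higher (Apoe and Cd52), 0 lower and a median of 0.23, with Tyrobp, a signalling adaptor, at 0.14 ± 0.06 and Ctsd, a lysosomal aspartic protease, at 0.10 ± 0.05. Co-stimulation had 4 of 8 tested, 1 called higher (Cd83) and a median of 0.21. Chemokines and cytokines had 4 of 10 tested, 0 called and a median of 0.18, with Cxcl16, a membrane-bound chemokine, at 0.73 ± 0.21 (edgeR adjusted p = 0.151). Ccl3 and Ccl4, inflammatory chemokines below the count filter, were called higher with 3 sum-0 cells per cell, without the filter and with thinning, Ccl3 also without replicate 1, and Ccl12 with 3 sum-0 cells and with thinning. These 3 genes are named after their values were seen. This list summed to 3655 CPM in low class II cells of replicate 3, against 828 CPM in its sum-0 cells, while the other libraries lay between 962 and 1591 CPM and between 744 and 1323 CPM.

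The microglial identity list had all 18 genes tested, 0 called and a median of -0.04, with Cx3cr1, the fractalkine receptor, at -0.19 ± 0.07 (edgeR adjusted p = 0.473). The list of ex vivo activated microglia (exAM), chosen by the study on other mice, had 12 of 25 tested, 0 called and a median of -0.10. Summed over its 25 genes it stood at 2906, 2772, 5539 and 4567 CPM against 2982, 2820, 2683 and 4949 CPM, so replicate 3 was higher in low class II cells and the others were slightly lower. Jun, an immediate early factor, was at -0.27 ± 0.12 and lower in 4 of 4 libraries, and Klf2, a Kruppel-like factor, was at 0.65 ± 0.22, neither called (edgeR adjusted p = 0.604 and 0.379). Proliferation genes had 2 of 10 tested, 0 called and a median of 0.08.

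**Figure D5:**
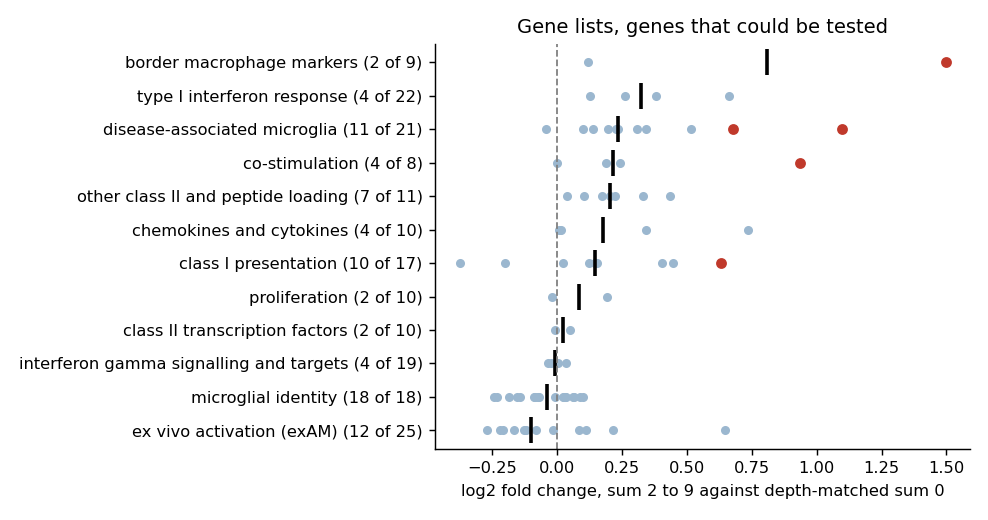
Log2 fold change (x axis) of each testable gene of the lists with at least 2 testable genes (number tested of number listed in brackets), called genes in red, the median of each list as a black bar and the median of all tested genes as a dashed line. The 2 border macrophage genes and the type I interferon list have the highest medians, and exAM the lowest.

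In the depth-matched arms, markers of other cells were present at low levels. Border macrophage markers summed to 184, 567, 476 and 556 CPM in low class II cells and 252, 558, 352 and 265 CPM in matched sum-0 cells, and 2 of 9 could be tested, of which 1, Pf4, was called. Monocyte markers summed to 161, 12.7, 95.2 and 10.5 CPM against 7.65, 4.23, 523 and 12.1 CPM, with Ly6c2, Vcan and Chil3 at 0 in low class II cells. Dendritic markers gave 4 UMIs against 2, with Clec9a, Cd209a and Ccr7 at 0. All 6 T and NK cell, 3 endothelial and 3 erythroid markers were at 0 in both arms. Neutrophil, neuron, astrocyte and oligodendrocyte markers had 1, 2, 3 and 19 UMIs in the matched low class II cells together.

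Cells with a single class II UMI were compared in the same way, with 1645 pairs. Of 7644 genes tested, 2 (0.0262%) were higher and 0 (0%) lower, and 388 had an unadjusted p under 0.05 (edgeR quasi-likelihood test with the library as a block, Benjamini-Hochberg). DESeq2 called 0 genes, as did edgeR without the block or without replicate 2, and the unadjusted p was under 0.05 for 29, 205 and 285 genes. The higher genes were Ccl12, a monocyte chemoattractant, at a log2 fold change of 0.59 ± 0.10 (adjusted p = 0.0115), and Pf4, at 1.31 ± 0.26 (adjusted p = 0.0491). Ccl12 stood at 231, 200, 89.4 and 142 CPM against 121, 92.3, 92.8 and 121 CPM, with replicate 3 level, and 10 of the 1645 cells held 44.1% of its UMIs. For Pf4 10 cells held 89.6%, and a UMI was found in 1.28% of the cells against 1.34% of matched sum-0 cells. In low class II cells Ccl12 was at 0.34 ± 0.17 and not called. Ccl4 and Ccl3, called higher in low class II cells under some alternatives, were lower at a sum of 1. They stood at -0.83 ± 0.19 and -0.56 ± 0.17, neither called (edgeR adjusted p = 0.139 and 0.714).

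Values for the genes called in low class II cells were smaller at a sum of 1. There H2-D1 was at 0.21 ± 0.05, Apoe at 0.47 ± 0.11, Cd83 at 0.31 ± 0.09, Cd52 at 0.23 ± 0.08, Gpr84 at 0.25 ± 0.09 and Lyz2 at 0.18 ± 0.17, none called, and P2ry12 was at -0.07 ± 0.03. Both comparisons drew sum-0 cells from the same pool. In low class II cells with a sum of 3 to 9 alone, H2-D1 was at 0.85, B2m at 0.60, Cd52 at 0.91, Apoe at 1.77 and P2ry12 at -0.47, and in those with a sum of 2 alone they were at 0.49, 0.24, 0.52, 1.17 and -0.18. These subsets were not compared by a test.

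Over all kept cells of each class, as a description, H2-D1 averaged 609 ± 85 CPM (SD, n = 4) at a sum of 0, 707 ± 124 at 1, 1062 ± 470 at 2 to 9 and 2383 ± 402 at 10 or more. Cd52 averaged 225 ± 25 CPM, 284 ± 91, 418 ± 205 and 2120 ± 833. Gpr84 averaged 218 ± 88 CPM at 2 to 9 and 58.4 ± 36.7 CPM at 10 or more, lower in 4 of 4 libraries. Cd83 averaged 223 ± 147 CPM at 2 to 9, of which replicate 3 had 435, and 111 ± 69 CPM at 10 or more, and libraries went either way. P2ry12 averaged 5548 ± 243, 5164 ± 300, 4384 ± 297 and 1084 ± 747 CPM over the same classes. From a sum of 0 to a sum of 1 H2-D1 and Cd52 were each higher in 4 of 4 libraries, although neither was called there after depth matching.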

How the data were processed

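The 4 matrices of UMI counts were used as deposited: the authors ran 10x Genomics 3′ version 2 libraries through Cell Ranger 2.2.0 on mm10 (GRCm38) with a filtered Ensembl annotation, so the counts are raw, cells had been called, and reads of near-identical genes may be lost or misassigned. The definition of the cells and the gene lists were chosen with earlier results of these data known. Counts of low class II cells and sum-0 cells, matched within 10% of UMIs outside the 4 genes, were summed per library and tested with edgeR 4.0.16 (TMM, filterByExpr, quasi-likelihood, library as a block because both arms came from the same mouse); DESeq2 1.42.0 was an alternative. CPM are summed counts scaled to a common total of UMIs outside the 4 genes. On simulated counts the edgeR script was checked.

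Named genes were to be the 10 highest and 10 lowest called genes that moved alike in all libraries with a mean of at least 10 CPM, the markers, and up to 4 genes per list. Of the 42 genes given by these and by the genes at an adjusted p under 0.05, the 25 with an unadjusted p under 0.05 or a marker role are described, a limit set after their values were seen. Exact sign-flip permutation tests planned for the Cd74 share and co-occurrence are not given, since the same genes chose the cells. Tools were Python 3.11.15, scipy 1.17.1 and R 4.3.3. A marker result is not reported here.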

Additional observations from a re-analysis of the deposited data

Results flagged for a closer look

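In 42 values a library far from the other 3 was looked for, by the gap to the nearest library over the whole range. Beside Dixon's 95% critical value for 4, 10 were past the limit, where chance flags about 1 in 20, and the values are related to each other. In 8 of the 10 the library apart was replicate 4. These 8 rest on the UMIs of the genes that chose the cells, so they are descriptions and not tests. Some restate others, such as the Cd74 share and its difference. Replicate 4 is described first. Replicate 4 was high in the share of low class II cells (gap over range 0.962, and 0.883 after thinning) and in the share of cells with a sum of 1 (22.5% against 8.86% to 10.4%, 0.889). It was also high in the share with 10 or more (1.20% against 0.272% to 0.325%, 0.943) and in the class II UMIs those cells held (0.937). It was low in the Cd74 share of the UMIs of low class II cells (0.910), in the difference of that share from the cells with 10 or more (0.845) and in the co-occurrence of Cd74 with the chain genes (0.860).

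The other 2 were H2-D1 in low class II cells, high in replicate 1 (0.831), and P2ry12 in matched sum-0 cells, low in replicate 2 (0.916).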

How the results depend on the processing

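The library was kept as a block because low class II and sum-0 cells came from the same mice. With no replicate block 0 genes were called in either comparison. Other counts of higher genes in low class II cells were 1 with DESeq2, 12 without the low-count filter, 11 with thinning to 1000 UMIs in place of matching, 3 after removal of the 5% of cells deepest in UMIs and, as an alternative chosen after seeing the data, 2 in cells with a sum of 2. Counts of lower genes were 1 with thinning, 2 in cells with a sum of 3 to 9 and 1 without cells with 3 or more type I interferon UMIs, the last chosen after seeing the data. Leaving out 1 library gave 0 to 6 higher genes and 0 lower, namely 6, 5, 2 and 0 without replicates 1 to 4. For cells with a sum of 1, DESeq2 called 0, and leaving out 1 library gave 0 to 3 (1, 0, 3 and 1), against 2 in all. The cause of these changes was not tested, though fewer cells entered some of them.

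Of 7 genes called, 7 were shared with DESeq2's size factors in edgeR and 6 with 3 sum-0 cells per cell. Over 25 genes and 424 alternative values, 5 changed sign, all at values that were not called: Tmem119 at 0.0139 and Ccl12 at -0.0632 with a sum of 2, Ccl12 at -0.0235 and Ifitm3 at -0.0230 with at least 1000 genes per cell, and Ctsd at -0.0811 with thinning. Among the called genes, Apoe kept its call in 14 of 18 alternatives (log2 fold change 0.50 to 1.94), Lyz2 in 13 of 18, H2-D1 in 12 of 18 (0.49 to 0.85), Gpr84 in 10 of 18, Cd52 in 9 of 18, Cd83 in 9 of 16 and Pf4 in 5 of 10. Leaving out 1 library moved the share of low class II cells between 1.66% and 3.24%, the Cd74 difference between 15.6 and 23.01 points and the co-occurrence difference between 3.38 and 4.77 points. Counting cells with a sum of 3 to 9 gave a share of 0.811% (SD 0.496).

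A sum of 2 to 9 rests on few UMIs, so single cells cannot be placed with certainty, and 2912 genes had enough UMIs to be tested. The cells of 4 mice of 1 sex and age were compared within libraries only.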
